A study of Mus musculus with 7 samples.

Results

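The genes described here are the 10 core components of the circadian clock, Per1, Per2, Per3, Cry1, Cry2, Arntl, Clock, Nr1d1, Nr1d2 and Dbp. They were picked by symbol from the 26607 genes listed in every library and not by a cut on any measured value, although earlier results of these data were known. The libraries came from C2C12, an established mouse myoblast line, after fusion into myotubes. The comparison asked how transcript levels differ after an in vitro counterpart of exercise, in which contraction is driven by electrical pulse stimulation (EPS). All cultures were grown in medium with 10% serum and moved to differentiation medium with 2% serum, renewed every 2 days. The 4 EPS libraries (replicates 1 to 4) came from myotubes pulsed at 1 Hz for 24 h after 3 days of differentiation and then rested for 1 h, and the 3 control libraries (replicates 1, 3 and 4) from myotubes without EPS. The hour of harvest and the time since the last medium change, both of which bear on the phase at which a clock in culture is read, are not given in the sources used here.

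The mammalian clock is a transcriptional loop. CLOCK and BMAL1, the protein made from Arntl, bind E-boxes and activate the Per and Cry genes, whose products return to the nucleus and inhibit that activation. A second loop runs through the nuclear receptors REV-ERBα and REV-ERBβ, made from Nr1d1 and Nr1d2, which repress Arntl at elements that the ROR receptors activate. The output factor DBP activates genes through D-boxes, where NFIL3 represses. Skeletal muscle has a clock of its own, and feeding, serum, temperature and muscle activity are all known to shift it. In a culture that was harvested once, a transcript level is the average over cells that may stand at different phases.

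Short stretches of the promoters of these genes are shown where they hold letters that match elements through which the loop is known to be wired. Whether any of these matches is bound or active in these cells was not tested. RefSeq promoters on GRCm38.p6, each running from 250 bases before to 50 bases after a listed start, were found for 9 of the 10 genes. They were searched on both strands for the letters CACGTG (E-box), CACGTT (a variant called E′), TTACGTAA or TTATGTAA (D-box), TAGGTCA (the core of the element for ROR and REV-ERB) and TGACGTCA (cyclic AMP response element, CRE). Of all 32851 promoters of the same length, 7.15% held the E-box letters, 4.68% the E′ letters, 1.06% a D-box, 2.61% the ROR core and 1.79% the CRE. No base belonged to matches of 2 motifs in the stretches below. In these, capitals mark the match, and the sequence reads 5′ to 3′ on the strand of the gene:
Per1, chr11:69098763-69098808, plus strand: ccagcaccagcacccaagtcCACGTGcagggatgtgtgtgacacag
Cry1, chr10:85185089-85185153, minus strand: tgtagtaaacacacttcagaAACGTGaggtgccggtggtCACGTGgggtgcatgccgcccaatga
Cry2, chr2:92434210-92434255, minus strand: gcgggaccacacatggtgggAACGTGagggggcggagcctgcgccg
Nr1d1, chr11:98775380-98775425, minus strand: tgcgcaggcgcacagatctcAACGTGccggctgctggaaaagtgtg
Per3, chr4:151044796-151044890, minus strand: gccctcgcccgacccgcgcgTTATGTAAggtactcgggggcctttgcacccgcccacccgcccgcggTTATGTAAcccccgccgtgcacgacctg
Arntl, chr7:113207530-113207559, plus strand: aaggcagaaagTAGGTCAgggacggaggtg
The E-box of Per1 began 166 bases before the first of its listed starts, and the window of the second held none of these letters. Both starts lie inside the span of the gene given below. Cry1 carried an E′ 79 bases and an E-box 60 bases before its start, Cry2 an E′ at 166 bases and Nr1d1 an E′ at 28 bases before theirs. Per3 carried a pair of D-boxes, 205 and 158 bases before its start. In Arntl the ROR core began at base 31, counted from the second of its listed starts. The E′ letters read AACGTG where they lie on the other strand. The windows of Clock, Nr1d2 and Dbp held none of these letters, which says nothing about sites farther away, and Per2 was not matched.

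Levels are given in CPM, the reads on a gene scaled to a fixed library total, and the reads behind each library were recovered from these values. They ranged from 16616917 to 22120641 in control (median 17152556) and from 18830229 to 21892568 in EPS (median 21005080). A count of 3 reads, used as the floor of detection, corresponded to 0.136 to 0.181 CPM. Control replicate 4 stood apart at low values, with 14014 genes above 0 against 16144 to 16984 in the other libraries. All 10 myotube markers were above the floor in these libraries, with a summed level of 10138 to 14938 CPM in control and 8283 to 11298 CPM in EPS. By limma, described below, 1 of the 10 was higher in EPS and the median log2 fold change was -0.52. Of these markers, 2 (Actn2 and Mymx, both lower) had P under 0.05, as 11.6% of all genes did. Control replicate 4 was the highest of the 7 libraries for Myog (1794 CPM, against 278 to 605 CPM in the others), Ckm, Des and Mymx, and the lowest for Mymk (460 CPM). The 5 cycling-cell markers summed to 208 to 291 CPM in control and 322 to 952 CPM in EPS. By limma all 5 were higher in EPS (median log2 fold change 0.94), 4 of them with P under 0.05, as 8.4% of all genes were upward. The part of the myotube and cycling-cell markers in the values below was not tested. Summed levels of the 5 undifferentiated myoblast markers were 155 to 231 CPM in control and 130.0 to 145 CPM in EPS. Of the fibroblast list, Thy1 and Tcf21 were not above the floor, and the 5 markers summed to 321 to 514 CPM in control and 286 to 421 CPM in EPS. Of the adipocyte list, Adipoq, Plin1, Cidec and Fabp4 were not above the floor, and the sums were 4.25 to 6.32 CPM and 5.76 to 12.6 CPM. In bulk RNA, fewer cells of a type and less RNA per cell cannot be told apart. The labels do not say whether replicates were separate cultures, so that p-values measure only the spread between these libraries.

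None of the 10 clock genes passed the thresholds for differential expression after EPS. With limma on log2(CPM + 1), 0 of 10 passed both P under 0.01 and 2-fold, a pair of thresholds that 1.41% of the 19144 genes tested passed. At an adjusted p under 0.05 the count was 0 of 10 against 0.141% of all genes, and at an unadjusted P under 0.05 it was also 0 of 10, against 11.6%. The count past both thresholds was likewise 0 by edgeR and by DESeq2 on the recovered reads. Of the 10, 6 were higher and 4 lower in EPS by the difference of mean log2(CPM + 1), although for Per2, counted as higher, the mean CPM was lower in EPS. Under quantile normalization, median-of-ratios scaling, edgeR and DESeq2, Per2, Cry1, Cry2 and Clock also turned lower, leaving only Nr1d2 and Dbp higher. On the deposited scale the median log2 fold change of the 10 was 0.035, against 0.041 over all genes tested. It was 0.10 over the 12256 genes with a mean of at least 1 CPM, a group that holds all 10 clock genes. Their median absolute log2 fold change was 0.14, against 0.22 over those 12256 genes. In 0 of 10 did the control and EPS libraries separate without overlap, against 10.6% of all genes. Each gene's own 95% confidence interval lay inside 2-fold in both directions, the bounds reaching from -0.81 for Per3 to 0.89 for Dbp on the log2 scale. These intervals hold for one gene at a time. The limit of 2-fold was not held by every gene when a library was left out, when between 7 and 10 of the 10 intervals stayed inside it, fewest without control replicate 3 (Per2, Per3 and Dbp outside), or with the replicate number as a block, when that of Dbp did not.

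**Figure D1:**
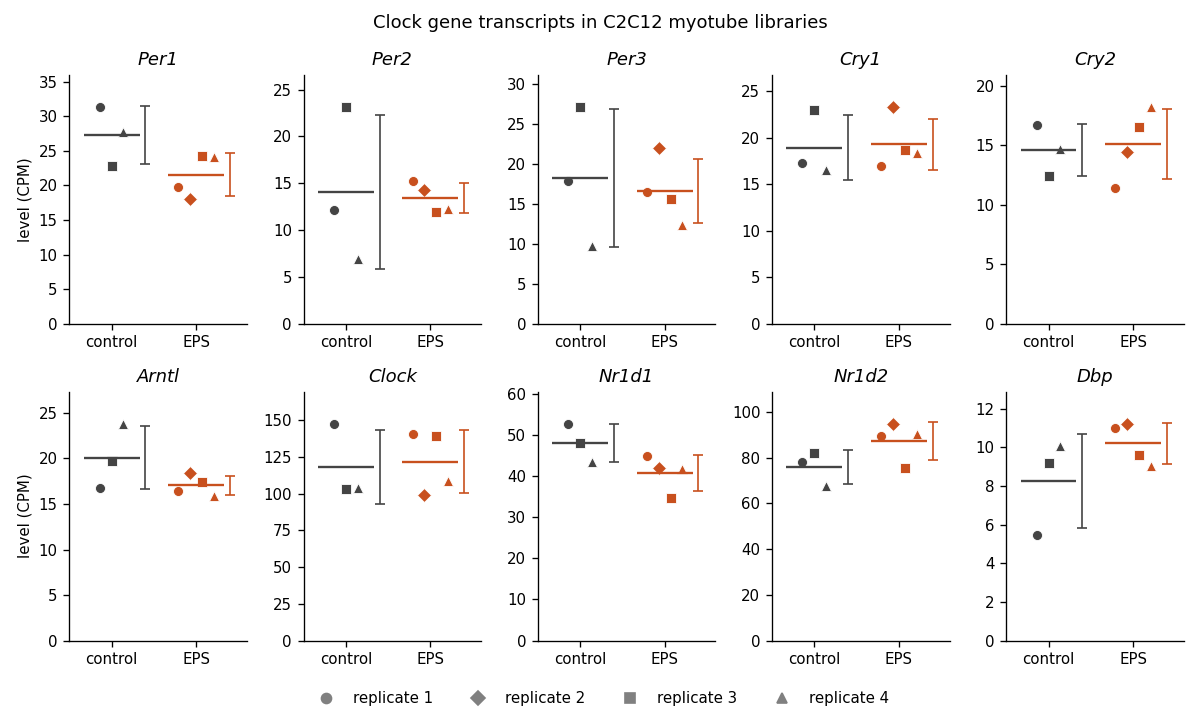
Level in CPM (vertical axis, from 0, own scale in each panel) of the 10 clock genes in 3 control (grey) and 4 EPS (orange) libraries. Marker shapes give the replicate number, horizontal lines the group mean and bars 1 SD. In every panel the groups overlap, and control replicates 3 and 4 lie far apart for Per2 and Per3.

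The activators came first in the loop. Clock (ENSMUSG00000029238.11, GRCm38 chr5:76209868-76304792, minus strand), the DNA-binding partner of BMAL1, was read at 147, 103 and 104 CPM in control replicates 1, 3 and 4 and at 140, 98.9, 139 and 109 CPM in EPS replicates 1 to 4. The values of each group fell into a lower and a higher cluster, and the groups overlapped almost wholly. The log2 fold change was 0.046 ± 0.19 (SE), with an adjusted p of 0.933. Arntl (ENSMUSG00000055116.8, chr7:113207465-113314126, plus strand) was at 16.8, 19.7 and 23.8 CPM in control and at 16.5, 18.4, 17.4 and 15.9 CPM in EPS. The EPS libraries were close together at 17.0 ± 1.09 CPM (SD, n = 4), and control replicate 4 was the highest of the 7. The difference of -0.22 ± 0.19 (SE) had an adjusted p of 0.714 by limma and an exact permutation p of 0.143 (two-sided). It was -0.093 without control replicate 4 and between -0.32 and -0.35 under quantile normalization, median-of-ratios scaling, edgeR and DESeq2.

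Of the period genes, which encode the repressors whose build-up times the loop, Per1 had the lowest P of all 10 clock genes in the limma fit on the deposited scale, while Nr1d1 had the lowest in the permutation test and in limma after quantile normalization or median-of-ratios scaling. Per1 (ENSMUSG00000020893.17, chr11:69095217-69109960, plus strand), known as an immediate-early gene of many stimuli, was at 31.3, 22.9 and 27.7 CPM in control and at 19.8, 18.0, 24.3 and 24.2 CPM in EPS. Replicates 1 and 2 of EPS lay below all control libraries, and the other two lay between the control values. The means were 27.3 ± 4.23 (SD, n = 3) and 21.6 ± 3.16 CPM (SD, n = 4). The difference was -0.33 on the log2 scale, with a 95% interval of -0.76 to 0.11. Neither the limma fit (P = 0.121, adjusted p = 0.561) nor the exact permutation test (p = 0.171, two-sided) passed its threshold. Among 12246 other genes with a mean of at least 1 CPM, the profiles nearest to that of Per1 over the 7 libraries were those of Qsox1, Ncrna00085 and Foxk2, with root mean square distances of 0.0701, 0.0884 and 0.108 in centred log2(CPM + 1).

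Per2 and Per3 varied more between control libraries than between groups. Per2 (ENSMUSG00000055866.9, chr1:91415982-91459324, minus strand) was at 12.2, 23.1 and 6.92 CPM in control and at 15.2, 14.2, 12.0 and 12.2 CPM in EPS. Thus the control libraries spanned 3.34-fold and held both the highest and the lowest of the 7 values, while the EPS libraries sat close together between them. The coefficient of variation was 58.7% in control and 11.8% in EPS, a difference that was not tested. The exact Poisson 95% intervals were 20.9 to 25.5 CPM for control replicate 3 (384 reads) and 5.86 to 8.10 CPM for control replicate 4 (153 reads). Such intervals cover counting error only. The residual SD of Per2, 0.52 on the log2 scale, exceeded that of 90.3% of genes with a mean of at least 1 CPM. The means were 14.1 ± 8.26 (SD, n = 3) and 13.4 ± 1.58 CPM (SD, n = 4), while the log2 fold change was 0.077 (95% interval -0.72 to 0.87), and it moved to -0.31 without control replicate 4 and to 0.49 without control replicate 3.

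Per3 (ENSMUSG00000028957.12, chr4:151003652-151044665, minus strand), whose promoter carries the pair of D-boxes shown above, had the same extremes. Its levels were 17.8, 27.1 and 9.76 CPM in control and 16.4, 22.0, 15.6 and 12.3 CPM in EPS. The highest value was again control replicate 3 and the lowest control replicate 4, with a 2.77-fold range in control. The log2 fold change of -0.050 (95% interval -0.81 to 0.71, adjusted p = 0.958 by limma) became -0.41 without control replicate 4 and 0.28 without control replicate 3. Under quantile normalization, median-of-ratios scaling, edgeR and DESeq2 it was -0.18, -0.16, -0.23 and -0.25.

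The cryptochromes, the main repressors of CLOCK and BMAL1, were close to 0 on the deposited scale, as were Clock and Per3. Cry1 (ENSMUSG00000020038.10, chr10:85131700-85185064, minus strand) was at 17.3, 23.0 and 16.5 CPM in control and at 16.9, 23.3, 18.6 and 18.4 CPM in EPS. One library of each group reached 23 CPM and the other five lay together. Cry2 (ENSMUSG00000068742.11, chr2:92403646-92434043, minus strand) was at 16.7, 12.4 and 14.7 CPM in control and at 11.4, 14.4, 16.6 and 18.2 CPM in EPS. The EPS libraries held both the lowest and the highest Cry2 value. The log2 fold changes were 0.031 ± 0.20 (SE) for Cry1 and 0.040 ± 0.22 (SE) for Cry2, and the signs of both turned under quantile normalization and under median-of-ratios scaling, as did those of Per2 and Clock. Of the exon bases of Cry2, 4.67% are shared with D930015M05Rik, which was read at no more than 0.859 CPM.

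The REV-ERB receptors, heme-binding repressors of Arntl, pointed in opposite directions by their means. Nr1d1 (ENSMUSG00000020889.11, chr11:98767932-98775333, minus strand) was at 52.7, 48.1 and 43.5 CPM in control and at 44.9, 41.9, 34.7 and 41.7 CPM in EPS. All but 1 of the EPS libraries lay below all control libraries. The means were 48.1 ± 4.58 (SD, n = 3) and 40.8 ± 4.33 CPM (SD, n = 4). On the log2 scale the difference was -0.24 (95% interval -0.58 to 0.11), with an adjusted p of 0.599 by limma and an exact permutation p of 0.0857. Nr1d1 was the only one of the 10 to pass an unadjusted P of 0.05 under any alternative. Its log2 fold change in limma was -0.33 with quantile normalization and -0.35 with median-of-ratios scaling, with adjusted p of 0.465 and 0.429. On the deposited scale, genes with a mean of at least 1 CPM had a median log2 fold change of 0.10, which both scalings bring close to 0. Nr1d1 shares 8.55% of its exon bases with Thra, which lies on the opposite strand and was read at 24.9 to 39.0 CPM. The kit keeps strand, but whether the counting used it is not given in the sources used here, so that reads on the shared bases cannot be assigned. Thra itself had a log2 fold change of -0.089 (adjusted p = 0.869 by limma).

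Nr1d2 (ENSMUSG00000021775.11, chr14:18204054-18239127, minus strand), the paralog with a largely shared function, was at 78.0, 82.0 and 67.4 CPM in control and at 89.5, 94.7, 75.4 and 90.2 CPM in EPS. Here 3 EPS libraries lay above all control libraries, and EPS replicate 3 lay among them. The means differed by 0.20 on the log2 scale (95% interval -0.12 to 0.53), with an adjusted p of 0.639 by limma and an exact permutation p of 0.114. It was 0.12 without control replicate 4, 0.14 under quantile normalization, 0.090 under median-of-ratios scaling and by DESeq2 and 0.10 by edgeR. Nr1d1 and Nr1d2 were among the most tightly measured genes, since only 7.33% and 6.53% of genes with a mean of at least 1 CPM had a smaller residual SD.

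Dbp (ENSMUSG00000059824.12, chr7:45705088-45710203, plus strand), the PAR bZIP output factor and a direct target of CLOCK and BMAL1, was at 5.48, 9.21 and 10.1 CPM in control and at 11.0, 11.2, 9.59 and 9.03 CPM in EPS. The lowest value, control replicate 1, stood well below the other 6 libraries, among which the groups overlapped. The means were 8.26 ± 2.44 (SD, n = 3) and 10.2 ± 1.06 CPM (SD, n = 4). The log2 fold change of 0.31 (95% interval -0.28 to 0.89, adjusted p = 0.700 by limma) moved to 0.07 without control replicate 1 and lay between 0.16 and 0.21 under those scalings, edgeR and DESeq2. Dbp shares 18.0% of its exon bases with Sphk2 on the opposite strand, which was read at 25.3 to 47.9 CPM, highest in control replicate 4.

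**Figure D2:**
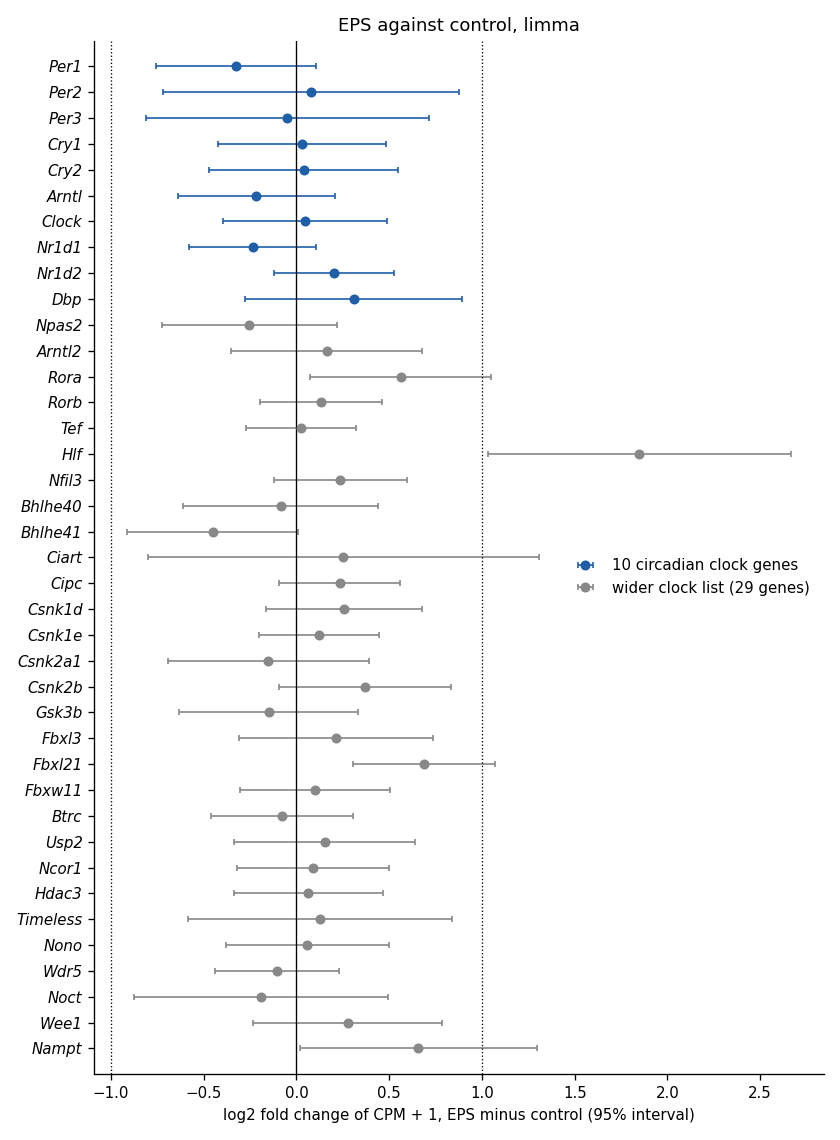
Log2 fold change of CPM + 1, EPS minus control (horizontal axis), with 95% intervals from limma, for the 10 clock genes (blue) and 29 further genes of the clock (grey). Dotted lines mark 2-fold in either direction. All 10 blue intervals cross 0 and stay between the dotted lines, and Hlf lies farthest to the right.

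A ratio of transcripts within a library moves little with the scaling of that library. The log2 ratio to Arntl of CPM + 1 was therefore taken for the 8 genes of the repressor and output side. The Dbp to Arntl ratio was -1.46, -1.02 and -1.16 in control and -0.54, -0.67, -0.80 and -0.75 in EPS, so that every EPS library lay above every control library. The means differed by 0.52, from -1.21 ± 0.22 (SD, n = 3) to -0.69 ± 0.11 (SD, n = 4). The exact two-sided permutation p was 0.0286, the smallest that 35 splits can give, and it did not pass after adjustment over the 8 ratios (adjusted p = 0.229). The difference ranged from 0.40 to 0.62 when each library was left out, designs in which p cannot fall below 0.0667 or 0.1. Next came Nr1d2 to Arntl, with a difference of 0.42, an exact permutation p of 0.0857 and an adjusted p of 0.343, and it was 0.21 without control replicate 4. Of the other ratios, Cry2, Cry1, Per2 and Per3 differed by 0.26, 0.25, 0.29 and 0.17, and Nr1d1 and Per1 by -0.02 and -0.11, with exact permutation p from 0.286 to 1. All 8 ratios share the Arntl values, in which control replicate 4 was highest, and they are not independent of each other.

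**Figure D3:**
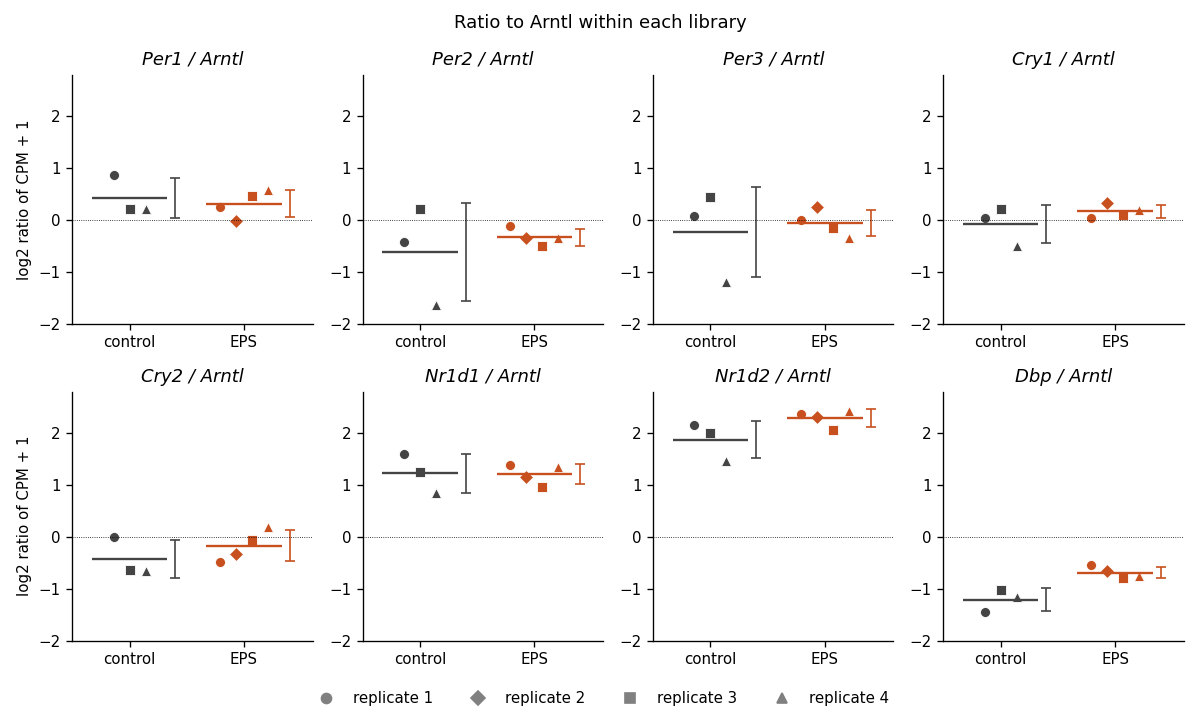
Log2 ratio of CPM + 1 to Arntl within each library (vertical axis) for 8 clock genes in 3 control (grey) and 4 EPS (orange) libraries, with group means (lines) and 1 SD (bars). The groups separate for Dbp and overlap for the other genes, and control replicate 4 is far below the rest for Per2 and Per3.

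Per length, the order of levels was alike in both groups. In CPM per kilobase of exon, Nr1d1 at 15.6 ± 1.49 (SD, n = 3) and Nr1d2 at 14.0 ± 1.39 led in control, followed by Clock at 8.62 ± 1.84, Cry1 at 5.67 ± 1.05 and Per1 at 4.85 ± 0.752. Dbp, Arntl, Per2, Cry2 and Per3 lay between 2.76 and 1.90. Neighbours in this order separated without overlap only between Nr1d2 and Clock, between Clock and Cry1 and between Per1 and Dbp. In EPS, Nr1d2 at 16.2 came before Nr1d1 at 13.3, then Clock at 8.88, Cry1 at 5.78, Per1 at 3.83 and Dbp at 3.41, with the other four between 2.40 and 1.73. The neighbours that separated there were Nr1d1 and Clock, Clock and Cry1, Cry1 and Per1, and Dbp and Cry2. Thus the receptors had the highest means per length of these 10 genes in both groups, and the lower part of the order is not resolved.

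For 5 of the 10 clock genes the lowest or highest value lay in control replicate 4, as it did for 50.9% of the 12256 genes with a mean of at least 1 CPM, so that the share is that of genes at large. The genes are named as a description, without a test. The other five, Per1, Cry2, Clock, Nr1d1 and Dbp, had their extremes in other libraries. Control replicate 4 was the lowest of the 7 libraries for Per2, Per3, Cry1 and Nr1d2 and the highest for Arntl. Control replicate 3 was the highest for Per2 and Per3. The same extremes held for Ciart, a repressor of CLOCK and BMAL1 listed under its older symbol Gm129, at 1.98, 4.27 and 0.316 CPM in control and 3.12, 2.92, 0.914 and 2.71 CPM in EPS. Its lowest value rests on 7 reads and its highest on 71. Control replicate 4 is also the library with fewer low genes detected and with the highest Myog, Ckm, Des and Mymx levels, and the part of either in these values was not tested.

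**Figure D4:**
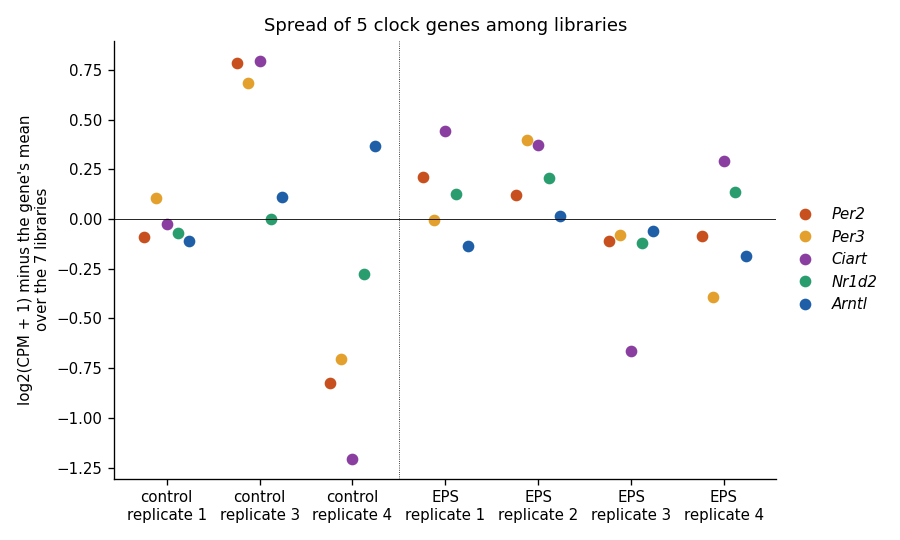
Deviation of log2(CPM + 1) from the gene's mean over the 7 libraries (vertical axis) for Per2, Per3, Ciart, Nr1d2 and Arntl in each library, genes chosen after their values were seen. In control replicate 4, Arntl is above 0 and the other four below it, while in control replicate 3 Per2, Per3 and Ciart are at their highest.

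Of 29 further genes of the clock, Hlf was higher after EPS past P under 0.01 and 2-fold, though not past the adjusted threshold. Hlf (ENSMUSG00000003949.16, chr11:90336536-90390895, minus strand) encodes hepatic leukemia factor, a PAR bZIP factor that binds the same D-boxes as DBP. It was at 0.816, 0.421 and 1.67 CPM in control (14, 7 and 37 reads) and at 2.89, 6.53, 6.90 and 8.55 CPM in EPS (62, 134, 151 and 161 reads). All EPS libraries were above all control libraries, as for 7.76% of all genes, with EPS replicate 1 the nearest to the control libraries. The means were 0.970 ± 0.640 (SD, n = 3) and 6.22 ± 2.39 CPM (SD, n = 4). The log2 fold change was 1.85 (95% interval 1.03 to 2.66) on the CPM + 1 scale, which understates the change of low genes. It passed P under 0.01 and 2-fold (P = 0.000658 by limma), as 0.966% of all genes did upward, but not the adjusted threshold (adjusted p = 0.0965, exact permutation p = 0.0571). The adjusted p was 0.00439 by edgeR and 3.96e-05 by DESeq2 on recovered reads. It was between 0.0466 and 0.215 over the limma alternatives without a filter on level. On genes averaging at least 1 CPM the adjusted p by limma was 0.0253. Hlf passes that filter only through its EPS level, since its control mean was 0.970 CPM, so no conclusion is drawn from this value. The fold change stayed between 1.64 and 2.12 when each library was left out. Just before its RefSeq start lies a CRE, the one motif of the 5 found there, shown because Hlf was the gene of the 29 that passed both thresholds:
Hlf, chr11:90390918-90390946, minus strand: tcggcgcgcggtgcgggcccTGACGTCAc
The match begins 9 bases before the start.

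The other genes at D-boxes did not pass. Tef, the third PAR bZIP gene, was at 128 ± 13.0 CPM (SD, n = 3) in control and 130.0 ± 3.93 CPM (SD, n = 4) in EPS. Nfil3, the D-box repressor, was at 34.5, 35.02 and 27.0 CPM in control and at 40.2, 40.6, 35.1 and 35.7 CPM in EPS. The Nfil3 groups did not overlap, by a gap of under 0.1 CPM, as for 7.76% of all genes upward. Its log2 fold change of 0.24 (95% interval -0.12 to 0.59) had a limma P of 0.170 and an exact permutation p of 0.0571, and it was 0.12 without control replicate 4 and 0.12 to 0.14 under those scalings, edgeR and DESeq2.

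**Figure D5:**
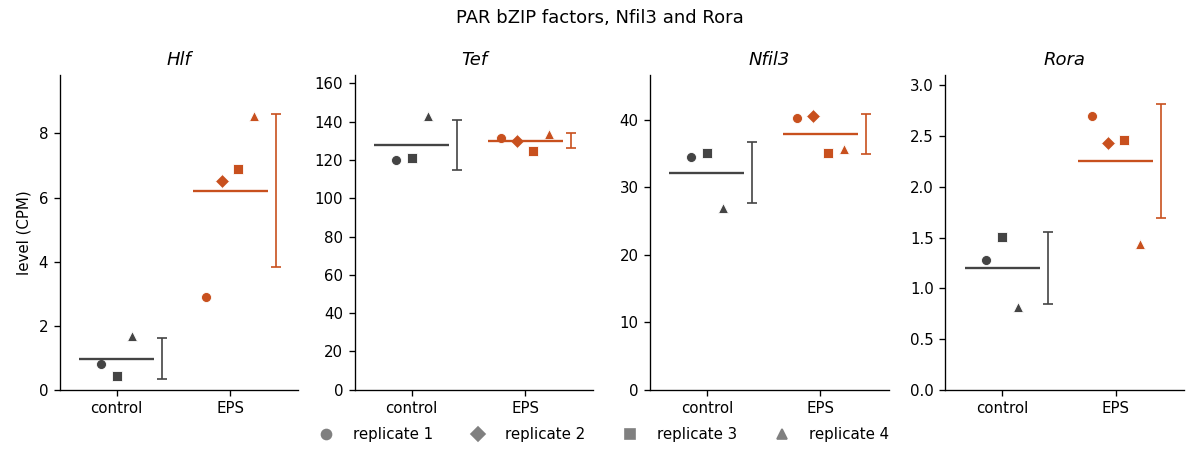
Level in CPM (vertical axis, from 0, own scale in each panel) of Hlf, Tef, Nfil3 and Rora in 3 control (grey) and 4 EPS (orange) libraries, with group means (lines) and 1 SD (bars). The Hlf libraries separate widely by group, Nfil3 barely, and the Tef and Rora groups overlap.

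Of the ROR receptors, activators of Arntl, Rora was at 1.28, 1.504 and 0.814 CPM in control and at 2.70, 2.44, 2.47 and 1.43 CPM in EPS. The EPS libraries other than replicate 4 lay above all control libraries. The log2 fold change was 0.56 (95% interval 0.08 to 1.05, P = 0.0282, adjusted p = 0.355 by limma, exact permutation p = 0.0857). Rorb, with 0 reads in control replicate 4, had a log2 fold change of 0.13 at levels under 1 CPM. With pseudocounts of 0.1 and 0.5 it was 0.74 and 0.25, and by edgeR and DESeq2 0.41 and 0.39. Among the repressors at E-boxes, Bhlhe40 was at 211 ± 44.3 CPM (SD, n = 3) and 199.7 ± 48.7 CPM (SD, n = 4). Bhlhe41, its paralog, was at 45.7 ± 7.21 CPM in control and 33.4 ± 6.45 CPM in EPS, with a log2 fold change of -0.45 (95% interval -0.91 to 0.01, adjusted p = 0.440 by limma). Under quantile normalization, median-of-ratios scaling, edgeR and DESeq2 its log2 fold change was -0.54, -0.56, -0.55 and -0.56, past an unadjusted P of 0.05 in each, with adjusted p from 0.240 to 0.417. Ciart had a log2 fold change of 0.25 (adjusted p = 0.869 by limma). It was 0.56 with a pseudocount of 0.1, 0.061 by edgeR and 0.037 by DESeq2. Without control replicate 4 it was -0.28, and without control replicate 3 it was 0.72.

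Counting the whole list of 29, 21 genes were higher and 8 lower in EPS by their means, with a median log2 fold change of 0.13, beside 0.10 over genes with a mean of at least 1 CPM, and 1 of 29 (Hlf) passed both thresholds. The groups separated without overlap for 3 of 29, all upward (Hlf, Nfil3 and Fbxl21), as for 7.76% of all genes upward. At P under 0.05, 4 of 29 were higher (Hlf, Fbxl21, Rora and Nampt) and 0 lower, where 8.4% and 3.21% of all genes tested were. Those 4 are read against a background that itself leans upward, and Rora did not pass this threshold by edgeR, by DESeq2, with a pseudocount of 0.1 or in 5 of the 7 limma fits that leave out a library, while Bhlhe41 passed it downward under the 4 settings named above. Fbxl21, a ubiquitin ligase subunit for the cryptochromes, was at 0.178 ± 0.158 CPM (SD, n = 3) in control, or 4, 5 and 0 reads, and at 0.919 ± 0.430 CPM (SD, n = 4) in EPS, or 14, 32, 17 and 13 reads. The 0 was in control replicate 4, where genes with 1 to 5 reads were few, and the part of that in the Fbxl21 values was not tested. With 1 CPM added to such low levels, its log2 fold change was 0.69, under 2-fold, while with a pseudocount of 0.1 it was 2.02 and by edgeR and DESeq2 2.29 and 2.31. It passed P under 0.01 as 2.83% of all genes did upward (P = 0.00286, adjusted p = 0.156 by limma), but not by edgeR or in limma without control replicate 4, and the exact permutation p was 0.0286, the smallest possible. None of the 5 kinases that phosphorylate clock proteins, the 2 corepressor genes of REV-ERB or the 3 partners of the PER complex passed P under 0.05 in limma, and the clock-controlled list had 1 of 3 (Nampt, log2 fold change 0.66, adjusted p = 0.416). The log2 fold change of Nampt was 0.36 without control replicate 4 and 1.01 without control replicate 3. Under quantile normalization, median-of-ratios scaling, edgeR and DESeq2 it was 0.57, 0.55, 0.48 and 0.47.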

How the data were processed

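Poly(A) RNA of C2C12 myotubes was made into directional libraries and read as paired ends of 100 bases. The processing notes of the submitters name STAR 2.5.4b and GRCm38. The read counter, the annotation and the strand setting are not given in the sources used here. The deposited files give CPM for each gene, scaled by the authors to the reads over all listed genes. The values are on the linear scale and their distributions differ between libraries, although a log2 and a quantile step are named in the study's methods. The study's methods name edgeR on counts, and because the deposited unit is CPM, log2(CPM + 1) was tested with limma 3.58.1 (R 4.3.3, empirical Bayes with a trend) over genes above 0 in at least 1 library, and p-values were adjusted by Benjamini-Hochberg over all of them. Single values were tested by exact two-sided permutation over the 35 splits (scipy 1.17.1). The scripts were tested on simulated data.

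Whole reads were recovered from the CPM (100% of values whole within 0.05 read) and used for edgeR 4.0.16 and DESeq2 1.42.0 as alternatives. The limma fit was also repeated after quantile normalization, after median-of-ratios scaling, with 0.1 or 0.5 as pseudocount, on genes averaging at least 1 CPM, at a P threshold of 0.001, with the replicate number as a block and with each library left out.

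The 10 genes and the lists were chosen with earlier results of these data known. The 10 were named whatever their values, and of the wider list the genes past P under 0.01, the D-box factors, Rora, Rorb, Bhlhe40, Bhlhe41 and Ciart. One gene of the wider list as first drawn up is not reported here, and the 29 counted leave it out. Nampt, Thra, Sphk2 and D930015M05Rik were named in addition after their values were seen. Coordinates, exon lengths and overlaps are those of GENCODE on GRCm38. No pair of libraries of the same group agreed within sampling noise.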

Additional observations from a re-analysis of the deposited data

Results flagged for a closer look

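One value stood apart from its group. Fbxl21, the ubiquitin ligase subunit for the cryptochromes, was at 1.56 CPM in EPS replicate 2, against 0.652 to 0.777 CPM in the other EPS libraries, a gap of 0.862 of the whole range. The 4 EPS libraries were examined in this way for 28 levels and ratios, of which this was the only one to stand apart, and chance alone marks about 1 in 20 such groups. The 3 control libraries are too few for this examination.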

How the results depend on the processing

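Over 15 alternative settings, 150 fits of the 10 clock genes gave 2 with P under 0.05, both for Nr1d1 and 1 each under quantile normalization and median-of-ratios scaling, and 0 past P under 0.01. A sign turned in 30. Under quantile normalization, median-of-ratios scaling, edgeR and DESeq2, the log2 fold change was -0.070, -0.028, -0.16 and -0.17 for Per2, -0.10, -0.077, -0.075 and -0.086 for Cry1, -0.10, -0.066, -0.049 and -0.061 for Cry2, -0.016, -0.066, -0.050 and -0.064 for Clock and -0.035, -0.086, -0.079 and -0.092 for Tef. These are scalings that move the median of genes with a mean of at least 1 CPM from 0.10 to near 0.

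With each library left out, log2 fold changes ranged from -0.31 to 0.49 for Per2, -0.41 to 0.28 for Per3, -0.058 to 0.17 for Cry1, -0.065 to 0.16 for Cry2, -0.039 to 0.21 for Clock, -0.019 to 0.11 for Tef, -0.27 to 0.037 for Bhlhe40, -0.28 to 0.72 for Ciart and -0.016 to 0.32 for Rorb. The differences in ratio to Arntl ranged from -0.22 to 0.11 for Per1, -0.22 to 0.71 for Per2, -0.32 to 0.50 for Per3, -0.21 to 0.16 for Nr1d1, 0.038 to 0.39 for Cry1, 0.13 to 0.47 for Cry2, 0.21 to 0.56 for Nr1d2 and 0.40 to 0.62 for Dbp, whose p of 0.0667 or 0.1 is the smallest those designs allow.

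Past both thresholds there were 269 genes in all, 601 with a pseudocount of 0.1, 629 by edgeR, 585 by DESeq2, 106 at a P threshold of 0.001 and 209 to 325 with a library left out. At an adjusted p under 0.05 there were 27, and 106 with a pseudocount of 0.1, 121 with a minimum mean of 1 CPM, 17 under quantile normalization, 290 by edgeR, 497 by DESeq2 and 0 to 27 with a library left out. The wider list had 2 genes past both thresholds with pseudocounts of 0.1 and 0.5 and by DESeq2, where Fbxl21 joined Hlf at 2.02, 1.05 and 2.31, and 1 to 2 with a library left out, the second being Nampt at 1.01 without control replicate 3. Without control replicate 4 Nampt was at 0.36. The cause of these shifts was not tested.

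Whether libraries of the same replicate number share a culture is not given. Deviations of same-numbered libraries correlated at 0.25, -0.45 and 0.068 for numbers 1, 3 and 4. These are deviations from means of only 3 or 4 libraries, so they depend on each other and cannot decide the question. With the number as a block, which also takes EPS replicate 2 out of the contrast, Cry1 was at -0.058, the same value as without that library and no block, and 0 genes in all had an adjusted p under 0.05.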
